A study of Drosophila melanogaster with 13 samples.

Results

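The genes described here are those of the Jun N-terminal kinase (JNK) pathway and of the matrix metalloproteinases, measured as poly(A) RNA in cultured ovarian somatic cells of Drosophila. They were chosen by name, as the rows bsk, hep, Tak1, slpr, Jra, kay, puc, Mmp1, Mmp2 and Timp. All 10 were found in both of the authors' deposited tables, among 8187 genes that the tables share. The study asked how Yb and Armitage, factors of the somatic piRNA pathway, shape RNA levels and the choice of piRNA precursors. Wildtype cells of the line received siRNA against luciferase (siLUC, the control), against Yb (siYB) or against Armitage (siARMI). Transfection was at 0 and 48 h and harvest at 96 h, with 3 libraries in each group. The labels give poly(A) RNA selected with oligo(dT) beads, and the tag RZ in the library titles is left unexplained. The cells are 1 line kept in culture. No label ties the 3 libraries of a group to separate cultures, so the p-values reflect the spread among these libraries alone, which may be technical. The other 4 libraries of the series (4-thiouridine labelling for 10 min at 4 mM, pulldown and input) were not analysed here.

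The JNK pathway is a relay of kinases. Tak1 and the mixed lineage kinase Slpr act on the kinase Hep, Hep activates the fly JNK, Bsk, and Bsk phosphorylates Jun (gene Jra), which pairs with Fos (gene kay) to form the transcription factor AP-1. The phosphatase Puc removes the activating phosphates from Bsk, and puc is itself a target of AP-1, which makes its transcript a common readout of the pathway. Mmp1 and Mmp2 are the matrix metalloproteinases of the fly, enzymes that cut basement membrane proteins, and Timp is their tissue inhibitor. Mmp1 is a known target of JNK signalling in wing discs and tumours, and in the ovary Mmp2 acts in follicle cells at ovulation.

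The tables hold results per comparison and no values per library, so levels by sample, depth per library and the precision that depth gives are unknown. A row holds the mean of the normalised counts of both groups, the log2 fold change and its error, and the p-value before and after Benjamini-Hochberg adjustment. A gene was called when its adjusted p was under 0.05, and values after ± are the deposited errors of the log2 fold change. The knockdowns hit their targets: armi stood at −1.92 ± 0.07 in the authors' deposited siARMI table, and fs(1)Yb at −2.17 ± 0.51 in the authors' deposited siYB table. After Armitage knockdown fs(1)Yb was also lower, at −0.26 ± 0.07 in the authors' deposited siARMI table (Benjamini-Hochberg adjusted p = 0.000903). The follicle cell transcripts tj and zfh1 had mean counts of 5825 and 7939 in the authors' deposited siARMI table. Of 8 hemocyte and fat body markers, Hml, He, NimC1, eater, Fbp1 and Lsp2 had no row, while srp and ppl were measured at mean counts of 189.4 and 172.2 in the authors' deposited siARMI table.

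After Armitage knockdown the transcripts of both metalloproteinases rose, Mmp2 to 4.49 and Mmp1 to 3.14 times the control, while that of their inhibitor Timp fell to 0.656 times the control (authors' deposited siARMI table). The transcripts of Jun and of puc rose by smaller steps, to 1.46 and 1.47 times the control in the authors' deposited siARMI table. Of the kinases Tak1 passed the test, while slpr, hep and bsk did not, and neither did the Fos gene kay. In all, 5 of the 10 genes were called higher, 1 lower and 4 not. Among 8289 genes tested in the authors' deposited siARMI table, 14.9% were called higher and 13.4% lower (28.3% in either direction). Calls are more frequent among well expressed genes: of 4233 genes with a mean count at or above that of bsk, the lowest of the 10, the authors' deposited siARMI table called 19.5% higher and 18.6% lower. The median log2 fold change was 0.24 over the 10 genes and −0.01 over all genes in the authors' deposited siARMI table.

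**Figure D1:**
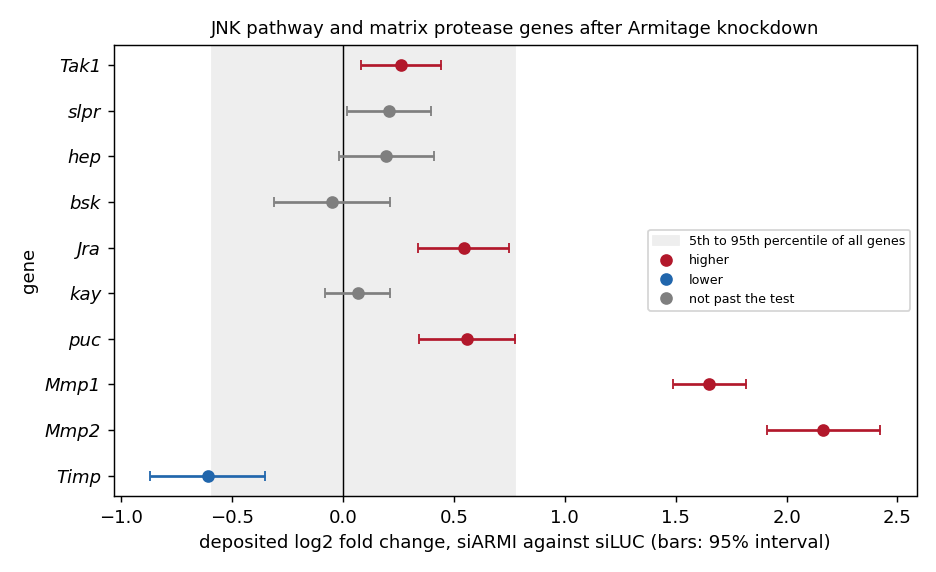
Deposited log2 fold change of siARMI against siLUC for each of the 10 genes (x axis), ordered by role from the upstream kinases to the protease inhibitor (y axis). Bars are 95% intervals from the deposited errors, and the grey band spans the 5th to the 95th percentile of all genes, −0.59 to 0.78. Mmp1 and Mmp2 lie to the right of the band, Timp lies just beyond its left edge, and the other 7 points lie within it.

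At the top of the relay, Tak1 (FBgn0026323; X, 20515908 to 20524928, minus strand, BDGP6.54) rose by 0.26 ± 0.09 on the log2 scale in the authors' deposited siARMI table (Benjamini-Hochberg adjusted p = 0.0152). Its change was the smallest among the 6 called genes. The neighbouring entry kinase slpr (FBgn0030018; X, 8170229 to 8177185, minus strand) stood at 0.21 ± 0.10 and did not pass in the authors' deposited siARMI table (Benjamini-Hochberg adjusted p = 0.0760). The kinase below them, hep (FBgn0010303; X, 13079205 to 13090434, minus strand), stood at 0.20 ± 0.11 in the authors' deposited siARMI table (Benjamini-Hochberg adjusted p = 0.157). The values of these 3 kinases lie within each other's errors, so the call of Tak1 alone does not set it apart from slpr and hep. The transcript of JNK itself, bsk (FBgn0000229; 2L, 10247502 to 10250501, minus strand), stood at −0.05 ± 0.13 in the authors' deposited siARMI table (Benjamini-Hochberg adjusted p = 0.826). Its 95% interval, −0.31 to 0.22, leaves room for a modest change in either direction.

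The partners of AP-1 had unlike values in this comparison. Jra (FBgn0001291; chromosome arm 2R) rose by 0.54 ± 0.11 in the authors' deposited siARMI table (Benjamini-Hochberg adjusted p = 1.17e-06). The transcript of Fos, kay (FBgn0001297; 3R, 29765995 to 29794113, plus strand), stood at 0.07 ± 0.07 in the authors' deposited siARMI table (Benjamini-Hochberg adjusted p = 0.550). It had the highest mean count of the 10, 2399 before any scaling by length, in the authors' deposited siARMI table. Its 95% interval of −0.08 to 0.21 was the narrowest. The Jra change exceeded that of kay by 0.48 ± 0.13, taking the 2 deposited errors as independent, and their 95% intervals did not overlap.

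The phosphatase transcript puc (FBgn0243512; 3R, 8105332 to 8122294, plus strand) rose by 0.56 ± 0.11 in the authors' deposited siARMI table (Benjamini-Hochberg adjusted p = 1.83e-06). It could not be told apart in size from Jra, whose interval of 0.34 to 0.75 nearly covers the puc interval of 0.34 to 0.78. Among the genes called higher in the authors' deposited siARMI table, 551 had a larger rise than puc and 570 a larger one than Jra. Both changes lie inside the span that holds the central 90% of genes, from −0.59 to 0.78. The genes closest to puc in change, among 2540 genes with a mean count within 2-fold of its own, were Flo2, Leash and Dyrk3, with log2 fold changes of 0.56, 0.56 and 0.56 in the authors' deposited siARMI table.

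The metalloproteinases changed most. Mmp2 (FBgn0033438; chromosome arm 2R), a protease that is anchored to the cell membrane, rose by 2.17 ± 0.13 in the authors' deposited siARMI table (Benjamini-Hochberg adjusted p = 5.73e-61). Mmp1 (FBgn0035049; chromosome arm 2R), which has secreted forms, rose by 1.65 ± 0.08 in the authors' deposited siARMI table (Benjamini-Hochberg adjusted p = 2.51e-84). The 95% interval of Mmp2, 1.91 to 2.42, lay above that of Mmp1, 1.49 to 1.82, a difference of 0.51 ± 0.16 with the errors taken as independent. Among the genes called higher in the authors' deposited siARMI table, 130 had a larger rise than Mmp2 and 189 a larger one than Mmp1. Of all genes tested, 3.9% were called higher with a log2 fold change of at least 1, and these were the only genes of the 10 among them. The genes nearest to Mmp2 in change, among 2649 of like abundance, were CG4168, insc and ppk17, at 2.11, 2.05 and 2.05 in the authors' deposited siARMI table. Nearest to Mmp1, among 1577, were fng at 1.66, Hsp67Ba at 1.68 and Sema5c at 1.70 in the authors' deposited siARMI table.

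Timp (FBgn0025879; 3R, 10203875 to 10213007, minus strand), which encodes the inhibitor, was the 1 gene of the 10 that fell, at −0.61 ± 0.13 in the authors' deposited siARMI table (Benjamini-Hochberg adjusted p = 1.40e-05). Among the genes called lower, 364 had a larger fall in the authors' deposited siARMI table. The gap between protease and inhibitor changes was 2.26 ± 0.16 for Mmp1 and 2.77 ± 0.19 for Mmp2 on the log2 scale, with the deposited errors taken as independent. Timp lies inside the span of Syn, on the opposite strand. Syn had a mean count of 2.60 in the authors' deposited siARMI table, against 259.7 for Timp. Jra overlaps RpLP0-like and Mmp1 overlaps Pof at their ends, on the opposite strand. RpLP0-like stood at −0.37 ± 0.15 and Pof at 0.20 ± 0.14 in the authors' deposited siARMI table. Noncoding genes lie inside Mmp2, kay and puc, and the protein-coding gene fig lies inside kay. In Mmp2, lncRNA:CR44070 and mir-307a are on the same strand, and asRNA:CR44069 overlaps it in part on the opposite strand. None of these genes was found under its name in the authors' deposited siARMI table. The gene slpr overlaps CG2278 at its end on the same strand, where strand cannot separate the reads, and CG2278 stood at −0.65 ± 0.37 with a mean count of 30.4 in the authors' deposited siARMI table. The library kit was directional, but whether strand was used in counting is not given in the sources used here.

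**Figure D2:**
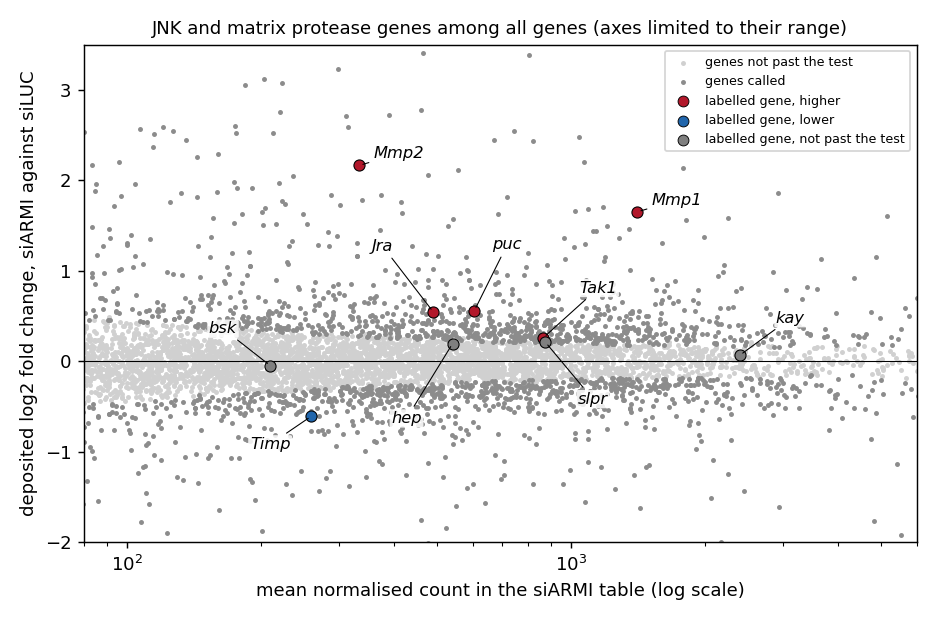
Mean normalised count (x axis, log scale) against the deposited log2 fold change of siARMI against siLUC (y axis), with 1 grey point per gene and the 10 genes labelled. The axes are limited to the range around the labelled genes. Mmp1 and Mmp2 stand above most genes of like abundance, and bsk, hep, slpr and kay lie in the light band of genes that did not pass.

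Levels were compared as group means that the tables imply, which are estimates without an error. With equal group sizes, the mean count and the log2 fold change in the authors' deposited siARMI table fix the siLUC and siARMI means. The means were expressed per kb of exon and per 1000000 counts of all genes, a scale like RPKM. In control cells kay led at 54.0, followed by Jra at 43.5, Tak1 at 35.9 and Timp at 35.4. Then came puc at 27.7, slpr at 26.0, Mmp1 at 25.3, bsk at 19.0 and hep at 14.6, and Mmp2 was lowest at 4.31 in this implied level. The order from puc to Mmp1 changes when the longest transcript is taken as the length, which puts Mmp1 in position 5, puc in 6 and slpr in 7.

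In Armitage knockdown cells the implied order was different. Mmp1 was highest at 79.0, ahead of Jra at 63.1 and kay at 56.3 on this scale, and with the longest transcript as length it was also first, at 98.5 against 95.8 for kay. Mmp2 reached 19.2 and stood close to bsk at 18.3 and hep at 16.6. Timp dropped from 35.4 to 23.1. Per kb, the implied level of Mmp1 was 0.714 times that of Timp in control cells and 3.42 times in siARMI cells. For Mmp2 the same quotient was 0.122 in control cells and 0.833 in siARMI cells. Fewer cells that carry a transcript and less transcript per cell cannot be told apart in these bulk samples, and RNA levels do not give the amount of protein.

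**Figure D3:**
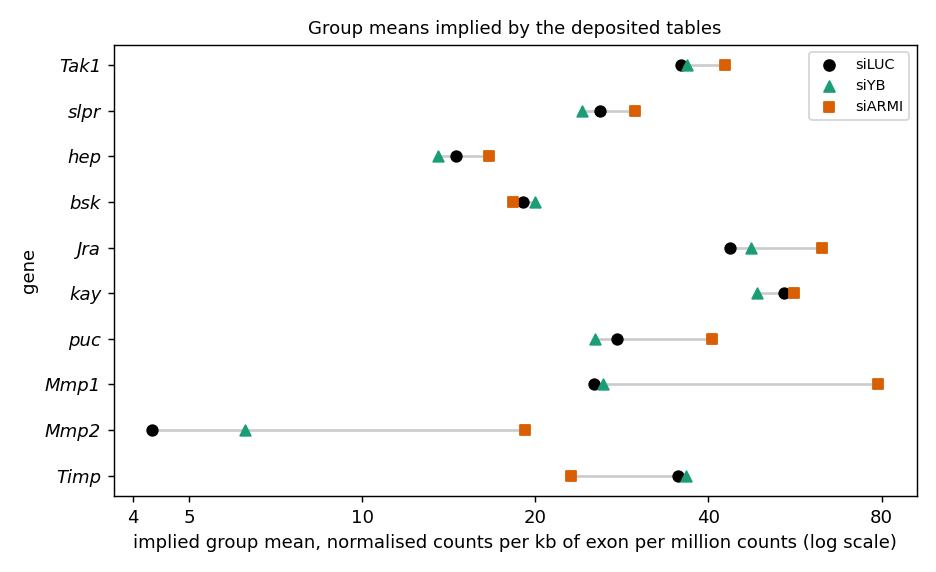
Group means implied by the deposited tables for the 10 genes, in normalised counts per kb of exon and per 1000000 counts of all genes (x axis, log scale). Each gene (y axis) has 1 point for siLUC, siYB and siARMI. For Mmp1 the siARMI point is at 79.0 against 25.3 in siLUC and 26.2 in siYB, and Mmp2 runs from 4.31 in siLUC over 6.26 in siYB to 19.2 in siARMI.

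After Yb knockdown none of the 10 genes was called in the authors' deposited siYB table, and 0 had an unadjusted p under 0.05. The lowest p was 0.408 for Mmp2 and the highest 0.923 for hep, and each of the 10 adjusted p-values rounds to 1.00 (Benjamini-Hochberg, in the authors' deposited siYB table). Calls were rare throughout: 0.0723% of 8295 genes were called in the authors' deposited siYB table, and 0.555% had an unadjusted p under 0.05. With no change in any gene, a calibrated test would put a share of 0.05 of the genes under that threshold. The p-values of this comparison therefore run high, and those of the 10 genes do not show an absence of change. The log2 fold changes of all 10 had been shrunk to about 0 by the authors, as in 8458 of 8480 rows, so they carry no size. Mean normalised counts summed to 1642735 over the rows of this table, against 6210715 over those of the authors' deposited siARMI table. Lower counts leave less room to call a change, but why calls were rare here was not tested. The error of fs(1)Yb was 0.51 at a mean count of 372.2 in the authors' deposited siYB table. That of bsk was 0.13 at a mean count of 210.0 in the authors' deposited siARMI table. The absence of a call says little about whether these transcripts changed.

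A size could be approached in another way, chosen after the data were seen. Both comparisons use the siLUC libraries, per the series design, so the siYB table's mean count, put on the scale of the siARMI table by the median ratio over 4233 genes, implies a siYB group mean. In the 22 rows whose deposited siYB change was not shrunk to 0, the implied change had the same sign in 22. The median absolute difference from the deposited one was 0.14 on the log2 scale, with differences from −0.51 to 0.91. These rows, some of them transposable elements, had large deposited changes, of which the smallest in absolute size was 0.71. Agreement in sign was therefore easy to reach, and it does not check the smaller implied changes of the genes described here. In the 2 rows that fell, the implied change lay above the deposited one by 0.63 and 0.91. In the 20 rows that rose, it exceeded the deposited one in 11, by at most 0.80, and in the others the difference reached −0.51. An implied change of the size found for Mmp2 is within these differences. Implied values carry no error and no test. By this estimate Mmp2 was at 1.45 times the control after Yb knockdown (log2 of 0.54), and Mmp1 was at 1.04 times. Among 2142 genes with an implied control mean within 2-fold of that of Mmp2, the central 90% had implied log2 changes from −0.28 to 0.39, and Mmp2 stood at percentile 97.7. Each of the other 9 genes lay inside the central 90% of the genes within 2-fold of its own control mean. Jra was at 0.13, bsk at 0.07, Timp at 0.05 and Tak1 at 0.03, while hep was at −0.10, slpr at −0.11, puc at −0.12 and kay at −0.15 on the implied log2 scale.

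Side by side, the siARMI values deposited for Mmp1 and Timp, 1.65 and −0.61 in the authors' deposited siARMI table, stand beside implied siYB values of 0.05 and 0.05. For Mmp2 the deposited siARMI value of 2.17 in the authors' deposited siARMI table stands beside an implied siYB value of 0.54. Each implied siYB value uses the siLUC mean derived from the siARMI change. An error in that mean moves both values the same way, so a shared sign is no independent evidence. The 2 comparisons share their control libraries, and the difference between the knockdowns was not tested, since the deposited siYB errors had been shrunk along with the estimates.

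The pathway around the 10 genes was described with lists of related genes. Among 26 measured inputs and scaffolds of JNK signalling, 6 were called higher, 2 lower and 18 not in the authors' deposited siARMI table, with a median log2 fold change of 0.14. The share called higher, 23.1%, compares with 14.9% of all genes and 19.5% of the well expressed genes. The share called lower, 7.7%, compares with 13.4% and 18.6%. The kinase gene msn, which feeds into the pathway in embryonic dorsal closure, rose by 1.32 ± 0.06 in the authors' deposited siARMI table (Benjamini-Hochberg adjusted p = 1.28e-109). It had the highest mean count of the list, 6103 before any scaling by length, in the authors' deposited siARMI table. Aplip1, which encodes a scaffold that binds JNK, rose by 2.60 ± 0.62, but at a mean count of 15.4 in the authors' deposited siARMI table.

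The GTPase genes Rac2 and Cdc42 rose by 0.72 ± 0.13 and 0.47 ± 0.09 in the authors' deposited siARMI table. The ligand gene egr, the tumour necrosis factor of the fly, rose by 0.34 ± 0.11 in the authors' deposited siARMI table (Benjamini-Hochberg adjusted p = 0.00886). Also higher was raw, an antagonist of the pathway in the embryo, at 0.45 ± 0.14 in the authors' deposited siARMI table. The scaffold gene POSH fell by 0.34 ± 0.09 and Tab2, whose product binds Tak1, by 0.26 ± 0.11 in the authors' deposited siARMI table. Of the receptor genes, grnd was barely detected, with a mean count of 6.84 and a log2 fold change of 0.54 ± 0.72, and wgn stood at −0.12 ± 0.13 in the authors' deposited siARMI table. Neither passed, and neither did Mkk4, the other kinase known to activate JNK, at 0.10 ± 0.09 in the authors' deposited siARMI table.

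Of 16 genes reported elsewhere as targets of JNK or AP-1, 10 were called higher, 2 lower and 4 not in the authors' deposited siARMI table. That is 62.5% called higher and 12.5% lower, against 14.9% and 13.4% of all genes and 19.5% and 18.6% of the well expressed genes. The median log2 fold change was 0.41 against −0.01. The list was assembled with earlier results of these data known, so these shares are no independent evidence. Among the 10 called higher was upd1, at 0.37 ± 0.69 with a mean count of 2.24 in the authors' deposited siARMI table. Without rows below the lower quartile of the mean count, 9 were called higher. The death gene hid rose by 4.19 ± 0.33 and the chaperone gene Hsp68 by 1.84 ± 0.09 in the authors' deposited siARMI table. The cytokine genes upd2 and upd3, ligands of the JAK-STAT pathway, rose by 1.51 ± 0.27 and 1.05 ± 0.18 in the authors' deposited siARMI table. The gene scaf, which encodes a serine protease homologue, rose by 0.86 ± 0.13 in the authors' deposited siARMI table. The transcription factor genes Ets21C and Atf3 rose by 0.59 ± 0.14 and 0.45 ± 0.12 in the authors' deposited siARMI table, close to the size of Jra and puc. Thor, a translational repressor, fell by 1.36 ± 0.29 in the authors' deposited siARMI table. The 4 that did not pass were Ilp8, zip, rpr and NLaz, of which Ilp8, rpr and NLaz had mean counts under 10 in the authors' deposited siARMI table.

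Other bZIP factors, the family to which Jun and Fos belong, moved in both directions. Of 15, 3 were called higher, 4 lower and 8 not in the authors' deposited siARMI table, with a median log2 fold change of −0.01. These are shares of 20.0% higher and 26.7% lower, against 14.9% and 13.4% of all genes. Of the well expressed genes 19.5% were called higher and 18.6% lower. Atf6, of the unfolded protein response, rose by 0.65 ± 0.13 in the authors' deposited siARMI table. Pdp1 fell by 0.85 ± 0.18, crc, the fly ATF4, by 0.36 ± 0.06, and the follicle cell factor tj by 0.30 ± 0.07 in the authors' deposited siARMI table. Xrp1 stood at −0.20 ± 0.08 and vri at 0.21 ± 0.07, both called in the authors' deposited siARMI table. In the other branches of MAP kinase signalling (p38 and ERK), 0 of 11 genes were called in the authors' deposited siARMI table (Benjamini-Hochberg). At an unadjusted p under 0.05 there was 1 of 11, against 37.1% of all genes in the authors' deposited siARMI table. It was p38a, at 0.24 ± 0.13, and the 11 values ran from −0.25 to 0.24 in the authors' deposited siARMI table.

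The basement membrane, the substrate of the metalloproteinases, was mixed at the transcript level. Of 17 genes of its components and receptors, 4 were called higher, 6 lower and 7 not in the authors' deposited siARMI table, or 23.5% higher and 35.3% lower. Of all genes 14.9% were higher and 13.4% lower, and of the well expressed genes 19.5% and 18.6%. The genes of the collagen IV chains, Col4a1 and vkg, fell by 1.29 ± 0.15 and 1.17 ± 0.21 in the authors' deposited siARMI table. The matrix protein gene Ppn fell by 0.84 ± 0.26 and the laminin gene LanA by 0.46 ± 0.06 in the authors' deposited siARMI table. The peroxidasin gene Pxn and the laminin gene wb rose by 1.27 ± 0.14 and 1.27 ± 0.22 in the authors' deposited siARMI table. Among 9 other measured matrix proteases and collagen-modifying enzymes, 3 were called higher, 1 lower and 5 not in the authors' deposited siARMI table. Plod, a lysyl hydroxylase gene, rose by 0.88 ± 0.11, and the metalloprotease genes AdamTS-A and Kul by 0.42 ± 0.10 and 0.38 ± 0.16 in the authors' deposited siARMI table. PH4alphaEFB, a prolyl hydroxylase gene, fell by 0.66 ± 0.11 in the authors' deposited siARMI table. The shares of the list called higher and lower were 33.3% and 11.1%, against 14.9% and 13.4% of all genes. For the well expressed genes they were 19.5% and 18.6%.

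**Figure D4:**
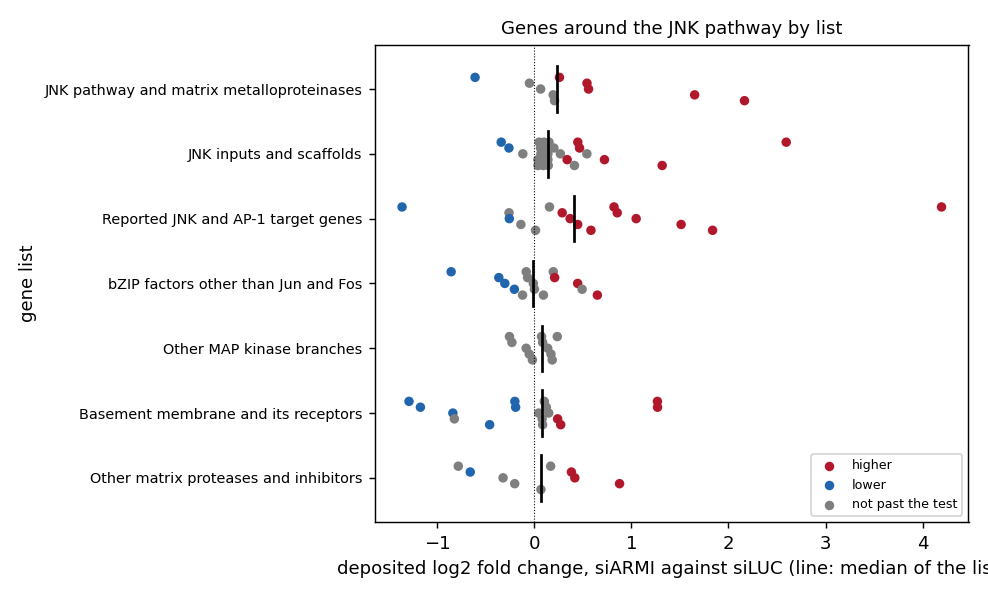
Deposited log2 fold change of siARMI against siLUC (x axis) for the 10 genes and for 6 lists of related genes (y axis), with 1 point per gene and a line at the median of the list. The medians are 0.24 for the 10 genes, 0.41 for the reported targets and between −0.01 and 0.14 for the other 5 lists, and no gene of the other MAP kinase branches was called.

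None of these lists held a called gene after Yb knockdown in the authors' deposited siYB table (Benjamini-Hochberg), and 0 of their members had an unadjusted p under 0.05. The lowest p among them was 0.0938, that of Col4a1, in the authors' deposited siYB table. Since the p-values of that comparison run high, this does not show that these genes were unchanged.

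Markers of other cell types ranged from barely detected to well expressed, and some moved with Armitage knockdown. In the authors' deposited siARMI table nSyb and vas had mean counts of 1.74 and 6.34. There elav, moody and Zasp66, at 337.1, 370.9 and 250.4, exceeded bsk at 210.0. The implied summed count of the 8 measured follicle cell markers was 20493 in siLUC and 21241 in siARMI. The sums were 187.4 and 367.7 for 7 of 8 germ cell markers, 298.9 and 424.3 for 2 of 8 hemocyte and fat body markers, 633.2 and 236.5 for 6 of 8 muscle markers, and 728.8 and 731.3 for 5 of 7 markers of neurons and glia. Within the follicle cell list Fas3 and eya rose by 2.13 ± 0.18 and 1.15 ± 0.11, while tj and zfh1 fell by 0.30 ± 0.07 and 0.23 ± 0.08 in the authors' deposited siARMI table. Of the 7 germ cell markers 3 were called higher (42.9%, against 14.9% of all genes) and 0 lower. Their median log2 fold change was −0.06. AGO3, gcl and osk rose by 1.82 ± 0.25, 0.87 ± 0.16 and 1.29 ± 1.43 in the authors' deposited siARMI table, osk at a mean count of 5.05. The values of vas, bam, aub and bgcn were below 0 and did not pass. Of the 5 markers of neurons and glia, 1 was called higher and 1 lower, or 20.0% each. Rim rose by 3.89 ± 0.69 at a mean count of 16.9, and moody fell by 0.38 ± 0.12 in the authors' deposited siARMI table. The hemocyte factor gene srp rose by 1.05 ± 0.19, and ppl, a fat body marker, stood at −0.06 ± 0.16 in the authors' deposited siARMI table. The muscle myosin gene Mhc rose by 1.08 ± 0.27 and the muscle gene Zasp66 fell by 4.00 ± 0.21 in the authors' deposited siARMI table. Without Zasp66 the summed muscle markers were at 162.0 in siLUC and 206.9 in siARMI. The part of such cells or programmes in the changes of Mmp1, Mmp2 and Timp was not tested.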

How the data were processed

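Poly(A) RNA of ovarian somatic cells was sequenced in 3 groups of 3 libraries, siLUC, siYB and siARMI, made with a directional kit per the labels' protocols. The tools listed, without roles, in the submitters' processing notes are DESeq2, edgeR, Salmon 1.7.0, STAR, Bowtie and HOMER. Neither genome build nor annotation is given in the sources used here. The authors deposited 1 table per knockdown against siLUC. Per the file headers it holds the mean normalised count (a signal over the libraries compared), the log2 fold change and its error, and the p-value before and after adjustment. The sign is knockdown against control, since each targeted gene is negative in its own table. The deposited log2 fold changes had been shrunk toward 0. For the 10 genes in the siARMI table, change over error was 0.942 to 0.994 times the normal quantile of the p-value. The errors can be shrunk along with the changes, so this quotient can understate the shrinkage and gives no size for it. The deposited adjusted p-values were recomputed as Benjamini-Hochberg to a largest difference of 3.63e-14.

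No values per library were available here, so the authors' test was used, no count test was run, and depth is unknown. Intervals are the estimate ± the normal 95% quantile times the deposited error. Implied means assume groups of equal size. Group sums and levels used gene rows only, with exon lengths from BDGP6.54 (Ensembl release 115). Marker sums are in counts on the scale of the siARMI table. Scripts used Python 3.11.15, pandas 2.3.3, statsmodels 0.14.6 and scipy 1.17.1 and were tested on simulated data. The genes and lists were chosen with earlier results of these data known, so no list was tested. From each list of pathway genes, at most 6 called genes with the largest absolute log2 fold change in the siARMI table were named, plus any measured gene of egr, grnd, msn, Mkk4, RECK, Col4a1, vkg, Atf3 and Ets21C. POSH, Tab2, Xrp1, the genes that did not pass, the overlapping genes and the cell type markers were named beyond that rule, after their values were seen. The genes closest to Mmp1, Mmp2 and puc are the 3 nearest in log2 fold change within 2-fold of the mean count. Of the list symbols, shark and yan were matched through a synonym.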

Additional observations from a re-analysis of the deposited data

How the results depend on the processing

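The siARMI calls of the 10 genes (5 higher, 1 lower) were unchanged when p-values were adjusted over genes only or over rows at or above the lower quartile of the mean count. Of 50 re-evaluations of single genes under the 5 alternatives, 44 stayed on their side of the threshold and 6 lost a call. Tak1 lost it with Holm adjustment (adjusted p = 1.00) and at an adjusted p under 0.01 (Benjamini-Hochberg adjusted p = 0.0152). With an added minimum of 1 for the absolute log2 fold change, 2 genes were higher and 0 lower, and Tak1, Jra, puc and Timp were lost by construction. Over the 6 lists of related genes together, without the 10, 25 genes were called higher and 15 lower. Of all genes 14.9% were called higher and 13.4% lower, and the counts of each list are given with its size above. The joint counts over the lists were 14 and 8 with Holm adjustment and 8 and 3 with the fold minimum. The siYB counts stayed at 0 under each of the 5 alternatives. The implied siYB changes of the 10 genes moved by less than their siARMI error when the tables were scaled by the median or the sum of all genes, alternatives chosen after seeing the data. No paired analysis was possible because the tables hold no values per library, and leaving out a library was not run for the same reason.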

Other observations

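Mmp2 was the 1 gene of the 10 with a transposable element annotated inside its span in BDGP6.54, a fragment of 45 bases in an intron on the opposite strand. The annotation lists 5896 such elements in the reference strain, and 8.35% of 8091 annotated genes in the siARMI table held at least 1. Of the genes that held 1, 25.6% were called higher after Armitage knockdown in the authors' deposited table, against 14.1% of the others. Genes with an element are longer, and among genes with a span of at least 50 kb the shares were 26.6% of 158 with an element and 39.2% of 74 without in the authors' deposited table. The insertions carried by the cultured cells were not analysed here.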
